A study of Mus musculus with 37 samples.

Results

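A set of 6 genes, among 60708 rows of the count table, was followed in splenocytes from wild-type FVB mice that had met RAW264.7 cells, a mouse macrophage line, or only medium taken from their cultures. They were RPL26L1 (ENSG00000037241), ZFHX4 (ENSG00000091656), CP (ENSG00000047457), TBX15 (ENSG00000092607), HMGA2 (ENSG00000149948) and LMNA (ENSG00000160789). The members were selected on their measured levels in these same libraries, as genes read in medium or in hypoxic unwashed co-culture and close to 0 in washed and normoxic unwashed co-culture. Their levels across those groups are therefore given as a description, without a test. All 6 were among the 5193 IDs with enough counts to be tested.

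RAW264.7 cells had been kept for 72 h at 21% oxygen (normoxia) or 1% oxygen (hypoxia). Part of each received SPP1, or osteopontin, a phosphoprotein that cells secrete. Splenocytes of wild-type genotype were then exposed for 48 h to the medium of these cultures (medium, 11 libraries), to the RAW cells without a wash (unwashed, 12 libraries) or to the RAW cells after the medium had been washed away (washed, 12 libraries). Each combination of exposure, oxygen and SPP1 had 3 libraries, except medium from normoxic cells without SPP1, which had 2, and 2 libraries were of naive splenocytes. Brefeldin A, which blocks protein secretion, was added to the cultures before collection, and the oxygen level was that of the RAW cells before the splenocytes were added. The RAW line is a single transformed line, so the groups did not sample macrophages of different animals. The series text states that experiments were repeated independently, but nothing tied replicate numbers to animals, and p-values therefore measure the spread between these libraries.

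The members do different things in a cell. HMGA2 is an AT-hook protein that bends DNA and shapes chromatin, abundant in the embryo and silent in most adult tissues. ZFHX4 is a large zinc finger and homeobox transcription factor, and TBX15 is a T-box transcription factor of skeletal and mesenchymal development. LMNA encodes the A-type lamins of the nuclear envelope, which are scarce in resting lymphocytes and abundant in stiff mesenchymal tissue. CP encodes ceruloplasmin, a secreted copper enzyme that oxidises iron, and RPL26L1 is a close copy of the large ribosomal subunit protein RPL26. The reads came from mouse cells but had been aligned to the human genome (GRCh38), so the gene behind an ID is uncertain. RPL26L1 was the 1 member whose symbol matched no mouse gene, so in these mouse cells its ID may have no gene of its own. Whether reads of RPL26, which encodes a near-identical protein, were counted under this ID was not tested. The values given for RPL26L1 are those of the ID. No gene names besides those of the members could be paired with the table's IDs, and the labelled cell type was not checked against its markers. In these bulk libraries, fewer cells of a type and less RNA per cell cannot be told apart.

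Of the 6 symbols, 5 matched a mouse gene in RefSeq, and 3 of these (Cp, Lmna and Hmga2) had a promoter window of 300 bases, from 250 bases before to 50 after a start site, on GRCm38.p6. The members were selected for a shared pattern, so a window of each of the 3 is shown, to let their base composition and motifs be compared; the link to the measured IDs is by symbol only. Both strands were searched for the letters ACGTG, a common form of the core of the element that hypoxia-inducible factors bind. Other forms of that core were not searched. The TATA box letters TATAAA were also searched for on both strands. Capitals mark TATAAA, on either strand.
Cp, second start, plus strand, chr3:19956999-19957298: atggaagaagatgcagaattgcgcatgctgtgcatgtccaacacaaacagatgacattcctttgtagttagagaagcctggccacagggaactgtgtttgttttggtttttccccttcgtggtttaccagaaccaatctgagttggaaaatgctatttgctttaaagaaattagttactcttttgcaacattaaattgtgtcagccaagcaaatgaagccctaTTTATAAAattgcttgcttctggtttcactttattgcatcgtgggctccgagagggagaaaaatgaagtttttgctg
Lmna, first start, minus strand, chr3:88503303-88503602: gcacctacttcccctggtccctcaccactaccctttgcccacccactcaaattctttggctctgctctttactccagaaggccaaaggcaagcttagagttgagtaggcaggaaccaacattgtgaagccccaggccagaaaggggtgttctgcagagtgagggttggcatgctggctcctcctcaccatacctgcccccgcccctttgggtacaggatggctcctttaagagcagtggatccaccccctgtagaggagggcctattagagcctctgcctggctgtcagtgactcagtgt
Hmga2, minus strand, chr10:120476420-120476719: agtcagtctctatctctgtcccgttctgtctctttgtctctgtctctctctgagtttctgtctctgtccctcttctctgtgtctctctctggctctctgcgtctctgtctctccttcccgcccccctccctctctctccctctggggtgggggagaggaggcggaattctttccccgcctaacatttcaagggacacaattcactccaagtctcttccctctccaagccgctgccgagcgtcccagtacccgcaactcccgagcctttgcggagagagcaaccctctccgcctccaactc
Over all 5 windows of these 3 genes (Cp and Lmna have 2 starts each), ACGTG had 0 matches, and it occurred in 19.6% of the 32851 promoter windows of the same length. The second Cp start held TATAAA, as 2 matches that overlap on opposite strands, and 13.6% of all windows held it. GC content was 40.0% in the printed Cp window, 56.3% in that of Lmna and 57.7% in that of Hmga2, beside a median of 52.7% over all windows. These letters are a description of the windows and carry nothing about which factors bound there.

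Total counts per library ran from 631574 to 1337314 (median 1063211), so that 3 counts, the most that a count of 0 allows, were worth 2.01 to 4.97 CPM, the unit of counts relative to library size used here. CPM were scaled by the trimmed mean of M-values (TMM), an adjustment for library composition, and intervals on counts cover counting error only. A pair of medium libraries stood apart from the rest. Over the other tested IDs, the first library of medium from hypoxic cells without SPP1 correlated at 0.937 with the mean of 9 medium libraries and at 0.954 with the mean of the 12 unwashed ones. For replicate 3 of medium from normoxic cells without SPP1 the correlations were 0.935 and 0.948. The other 9 medium libraries correlated at 0.968 to 0.983 with medium and at 0.899 to 0.931 with unwashed. Both libraries had above-median totals (1155226 and 1319225 counts), both lacked SPP1, and their members summed to only 9 and 130 counts, beside 438 to 797 in the other 9. By profile both were thus closer to the mean of the unwashed libraries than to that of the 9 medium ones. Neither reached the 0.963 to 0.982 that 11 unwashed libraries had with the unwashed mean, and no mean of washed libraries was compared. Whether this pair was mislabelled or handled differently was not tested. Both libraries are kept under their labels, with values also given without them. Without them the medium means (n = 9) were 115.2 CPM for RPL26L1, 118.7 for ZFHX4, 93.5 for CP, 53.3 for TBX15, 109.2 for HMGA2 and 55.1 for LMNA. Replicate 2 of unwashed hypoxia without SPP1 also differed from its group, with a correlation of 0.914 with the mean of the other unwashed libraries, beside 0.963 to 0.982 for the remaining 11.

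**Figure D1:**
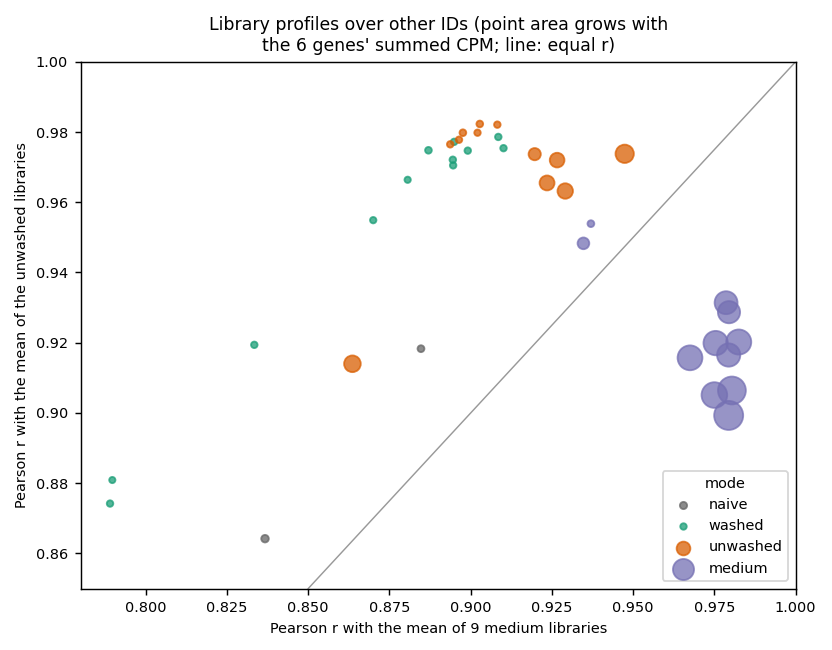
Each point is 1 of the 37 libraries, placed by the Pearson correlation of its log2 CPM over the other IDs with the mean of 9 medium libraries (horizontal) and with the mean of the 12 unwashed libraries (vertical), leaving itself out; point area grows with the summed CPM of the 6 genes. The 9 medium libraries with large points lie below the line of equal correlation, and the pair of medium libraries that stood apart (0.937 and 0.954, 0.935 and 0.948) lie above it with small points.

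HMGA2, ZFHX4 and TBX15, the chromatin protein and the transcription factors, shared high levels in most medium libraries and low ones in washed co-culture. HMGA2 ranged from 0.771 to 161.5 CPM in the 11 medium libraries, with a median of 115.3 and a mean of 91.7 ± 54.3 (SD, n = 11). Its 6 unwashed hypoxia libraries ran from 14.1 to 34.5 CPM, with a median of 30.1 and a mean of 26.9 ± 7.65 (SD, n = 6). No unwashed normoxia library had more than 2 HMGA2 counts, and no washed library had more than 3. In the naive splenocytes HMGA2 had 1 and 6 counts, so the second naive library was above every washed one. Medium and unwashed hypoxia overlapped for HMGA2 only through the pair of medium libraries that stood apart. ZFHX4 had its lowest, median and highest medium values at 0, 112.3 and 155.3 CPM (mean 97.2 ± 52.0, SD, n = 11). In unwashed hypoxia ZFHX4 spread widely, from 9.37 through a median of 33.2 to 94.3 CPM (mean 37.5 ± 30.4, SD, n = 6). Elsewhere ZFHX4 was all but unread: 1 count over the 6 unwashed normoxia libraries, 3 over the 12 washed ones and 0 in both naive ones. The highest unwashed hypoxia library, replicate 3 with SPP1, lay among the medium libraries, and the other 5 lay below all but the pair that stood apart. TBX15 reached 80.4 CPM in medium, with a median of 47.0 and a mean of 44.2 ± 25.4 (SD, n = 11). Its unwashed hypoxia counts were 4, 7 and 25 with SPP1 and 10, 1 and 17 without, a mean of 9.90 ± 7.77 CPM (SD, n = 6). The single TBX15 count of replicate 2 without SPP1 equalled the single count found in the 6 unwashed normoxia libraries, so at this depth that library does not differ from them. All 12 washed libraries had 0 TBX15 counts, whereas the 2 naive libraries had 2 and 4.

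LMNA was the member with the most counts in the low groups. It had a medium median of 48.8 CPM (0.771 to 81.3, mean 46.2 ± 23.2, SD, n = 11). In unwashed hypoxia it ran from 8.20 to 23.8 CPM, with a median of 17.5 and a mean of 17.2 ± 5.54 (SD, n = 6). The 6 unwashed normoxia libraries held 1 to 5 LMNA counts each, 18 in all, and the 12 washed ones held 0 to 3, 13 in all. LMNA was thus low rather than absent after normoxic contact, and its unwashed hypoxia values stayed below all medium values but those of the pair that stood apart. CP, the secreted copper enzyme, had a medium median of 86.0 CPM (0.771 to 133.5, mean 78.9 ± 41.0, SD, n = 11). Its unwashed hypoxia values were 15.9, 11.6 and 20.5 CPM with SPP1 and 21.6, 39.8 and 16.8 without, a mean of 21.0 ± 9.87 (SD, n = 6). CP had counts in 1 of the 6 unwashed normoxia libraries, which held 3. As for LMNA and HMGA2, every medium library but the pair that stood apart was above them all. RPL26L1, the ribosomal protein copy, had the unwashed hypoxia mean closest to its medium mean. Its medium values ran from 3.85 to 159.9 CPM with a median of 99.2 (mean 96.7 ± 48.3, SD, n = 11), and its unwashed hypoxia values from 30.3 to 147.5 CPM with a median of 61.1 (mean 73.0 ± 40.3, SD, n = 6). Unwashed normoxia held 2 RPL26L1 counts over 6 libraries, and the 6 washed hypoxia libraries held 0. The highest unwashed value, 147.5 CPM, belonged to replicate 2 without SPP1, the library that differed from its group; without it the mean was 58.1 ± 19.1 (SD, n = 5).

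**Figure D2:**
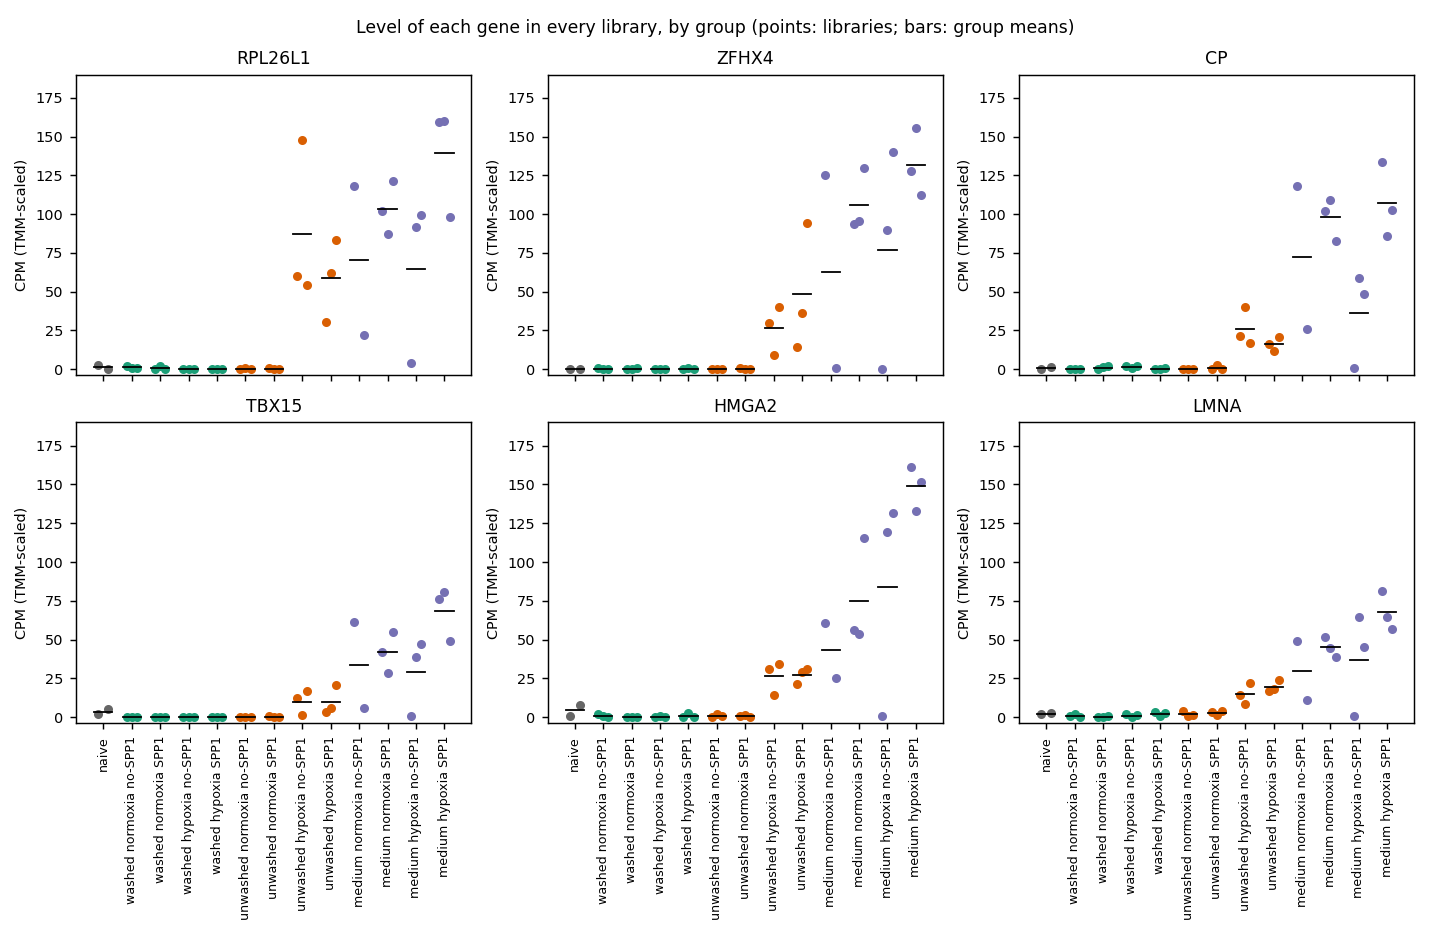
Each panel plots 1 gene, with TMM-scaled CPM on the vertical axis (linear, the same in all panels) and the 13 groups on the horizontal axis; points are libraries and bars are group means. Levels are near 0 in naive, washed and normoxic unwashed groups, while the low points in medium groups without SPP1 belong to the pair of libraries that stood apart (9 and 130 member counts).

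In each of the 6 genes, every unwashed hypoxia library had a higher CPM than every unwashed normoxia library. For TBX15 this rested on 1 count against 1 count (1.17 and 0.771 CPM), a difference of library size only. Over all tested IDs 127 of 5193 (2.45%) had this pattern. All 6 genes also had every unwashed hypoxia library above every washed library, which held for 47 of 5193 IDs (0.905%), and each of the 6 SPP1 medium libraries above all washed and unwashed normoxia libraries, as did 603 of 5193 IDs (11.6%). The members were chosen for these very differences, so nothing is read from the counts of members. Ratios of the summed counts, scaled to library size, give the size of the description. Their intervals cover counting error only and leave out the spread between libraries. Because the members were selected on these differences, the intervals are not read as tests. Unwashed hypoxia over unwashed normoxia was 7.05 for LMNA (95% exact counting interval 4.26 to 12.3), 32.4 for HMGA2 (14.6 to 89.4) and 47.9 for CP (16.0 to 235). For RPL26L1, ZFHX4 and TBX15 the normoxic side held 1 or 2 counts, and the lower ends of the intervals were 68.9, 50.1 and 12.4. Medium over washed was 39.0 for LMNA (22.6 to 73.7), 97.6 for CP (51.2 to 214), 141 for HMGA2 (68.3 to 352), 177 for RPL26L1 (81.1 to 483) and 355 for ZFHX4 (121 to 1720), whose washed side held 3 counts. Against washed libraries with 0 counts throughout, TBX15 in medium was at least 13.9-fold higher, setting 3 counts in each washed library as the floor. The same floor in the 6 washed hypoxia libraries, all at 0, put TBX15 in unwashed hypoxia at least 3.19-fold and RPL26L1 at least 23.5-fold higher.

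Relative to medium, hypoxic unwashed co-culture held different portions of the 6 genes. The mean of RPL26L1 in unwashed hypoxia was 75.5% of its medium mean. ZFHX4 stood at 38.6%, LMNA at 37.2%, HMGA2 at 29.3%, CP at 26.7% and TBX15 at 22.4%. Against the 9 medium libraries that did not stand apart, these shares were lower, from 63.3% for RPL26L1 to 18.6% for TBX15. The same difference appears in the makeup of the members' own counts. RPL26L1 made up 21.4% ± 2.20 (SD, n = 10) of the 6 genes' counts in medium libraries with at least 100 such counts, and 38.4% ± 14.5 (SD, n = 6) in unwashed hypoxia. Without replicate 2 without SPP1 the unwashed share was 32.6% ± 3.91 (SD, n = 5). TBX15 held 9.25% ± 1.84 in medium and 5.15% ± 3.25 in unwashed hypoxia, and CP 18.6% ± 6.22 and 11.7% ± 4.54. LMNA, at 10.4% ± 1.92 and 10.0% ± 4.22, ZFHX4, at 19.8% ± 7.27 and 19.1% ± 10.0, and HMGA2, at 20.5% ± 6.26 and 15.6% ± 5.58, differed by less than their spread. Because the members were selected on their levels in these groups, the shares were not tested.

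Single libraries departed from their group in the makeup of these counts. In unwashed hypoxia without SPP1, replicate 2 had the highest RPL26L1 and CP values of the 6 libraries and the lowest of the other 4 members. In unwashed hypoxia without SPP1, replicate 2, RPL26L1 supplied 126 of 188 member counts (67.0%, 95% exact interval 59.8 to 73.7). TBX15 supplied 1 of 188 there (0.532%). In medium from normoxic cells without SPP1, replicate 3, ZFHX4 supplied 1 of 130 counts (0.769%, interval 0.0195 to 4.21), although CP had 37 counts and HMGA2 36 in that library. ZFHX4 was near 0 in that library, and the other members were reduced but read. In the first library of medium from hypoxic cells without SPP1 all members were near 0, with 5 RPL26L1 counts, 1 each of CP, TBX15, HMGA2 and LMNA, and 0 of ZFHX4.

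**Figure D3:**
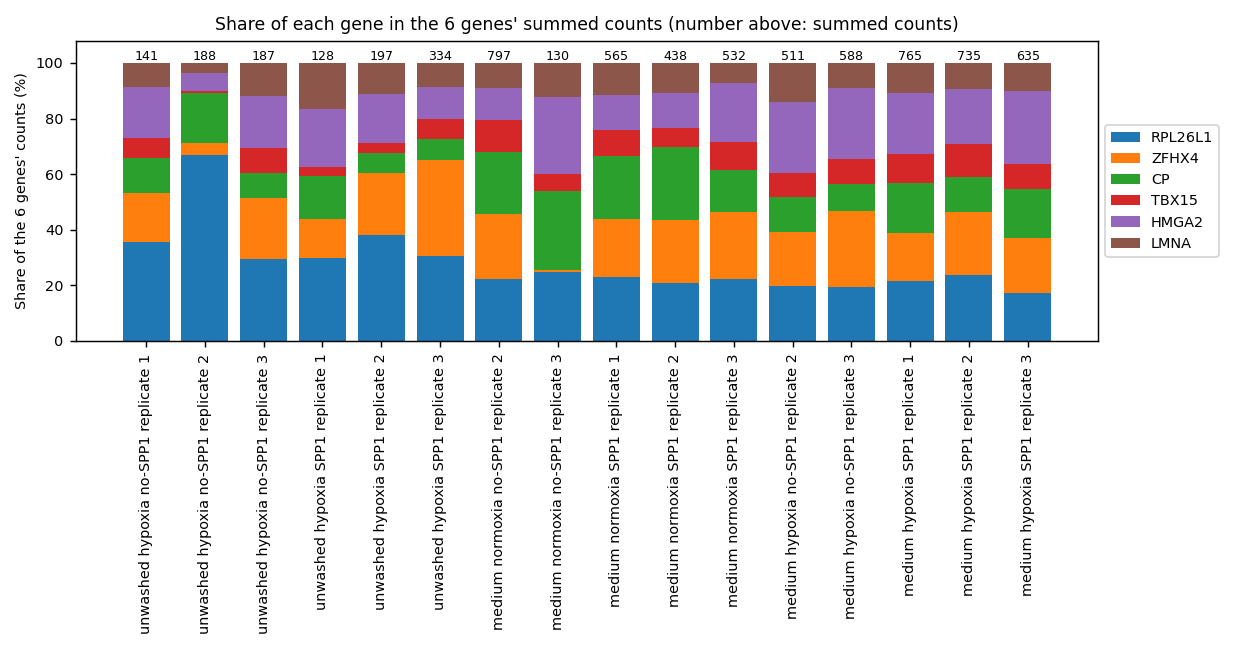
Stacked bars give the share of each gene in the 6 genes' summed counts (percent, from 0), for the 6 unwashed hypoxia libraries and the 10 medium libraries with at least 100 such counts; the number above each bar is that sum. RPL26L1 takes 67.0% in replicate 2 of unwashed hypoxia without SPP1 and 17.2% to 24.6% in the medium libraries, and ZFHX4 is almost missing from replicate 3 of medium from normoxic cells without SPP1.

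The selection did not use SPP1 or the oxygen level within medium, so these comparisons were tested, with edgeR's quasi-likelihood test over all 5193 IDs and Benjamini-Hochberg adjustment. In medium, all 6 members had higher means with SPP1 than without, but none passed. CP had 133.5, 86.0 and 102.4 CPM with SPP1 and 0.771, 58.9 and 48.7 without in medium from hypoxic cells. From normoxic cells CP had 102.2, 108.8 and 82.7 CPM with SPP1 and 118.4 and 25.8 without. The hypoxic groups did not overlap for CP, HMGA2 and TBX15, and overlapped for RPL26L1, ZFHX4 and LMNA. The normoxic groups overlapped for CP. The value of 0.771 came from a library that stood apart. The share of all IDs with such a separation was not computed, so nothing is read from it. The log2 fold change of CP with SPP1 was 1.01 (SE 0.45, 95% interval 0.08 to 1.93, edgeR adjusted p = 0.516). The other members had log2 fold changes between 0.73 for LMNA (SE 0.44) and 0.83 for RPL26L1 (SE 0.45), with edgeR adjusted p from 0.60 to 0.75. The median over the members was 0.80 and that over all tested IDs -0.02. Of all IDs 13 passed (0.25%), all lower with SPP1, 478 had an unadjusted p below 0.05, and DESeq2 called 31, among them 0 members.

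These SPP1 differences shrank without the pair of libraries that stood apart, which both belonged to the groups without SPP1. With both left out, the log2 fold changes of the members fell to between -0.0025 for ZFHX4 and 0.38 for CP. That fit left 1 library of medium from normoxic cells without SPP1, so it cannot settle how much the pair contributed. ZFHX4 shows it most plainly. Its medium values with SPP1 were 127.7, 155.3 and 112.3 CPM after hypoxia and 93.5, 95.5 and 129.6 after normoxia. Without SPP1 they were 0, 89.7 and 140.0 after hypoxia and 125.0 and 0.698 after normoxia. The 3 libraries without SPP1 that did not stand apart, at 89.7 to 140.0, overlapped with the 6 with SPP1. The log2 fold change of ZFHX4 rose to 3.91 (edgeR adjusted p = 0.0271) when replicate 2 of medium from normoxic cells without SPP1 was left out, which left 1 library in that group, the one with 1 ZFHX4 count; that lone library is assumed to vary like the other groups.

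Oxygen in the RAW cultures gave no member a difference in medium that passed the test. HMGA2 had the largest difference among the 6. In medium from hypoxic cells it had 161.5, 133.1 and 151.8 CPM with SPP1 and 0.771, 119.6 and 131.3 without. In medium from normoxic cells HMGA2 had 56.3, 53.5 and 115.3 CPM with SPP1 and 60.9 and 25.1 without. The hypoxic library with 1 count lay below every normoxic one. Among the other hypoxic libraries the lowest value, 119.6, was close to the highest normoxic one, 115.3. Its log2 fold change was 0.97 (SE 0.49, 95% interval -0.02 to 1.96, edgeR adjusted p = 0.669). Without the libraries that stood apart it was 1.05, again with 1 library left in medium from normoxic cells without SPP1. CP pointed the other way, at -0.44 (SE 0.44, edgeR adjusted p = 0.903). RPL26L1, ZFHX4, TBX15 and LMNA had log2 fold changes of 0.15, 0.29, 0.24 and 0.43, with edgeR adjusted p from 0.903 to 0.977. Over all 5193 IDs 4 passed (0.077%), 382 had an unadjusted p below 0.05, and DESeq2 called 11, none of them members. The members' median was 0.27, beside 0.02 over all IDs.

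Whether SPP1 acted differently after hypoxia than after normoxia was asked by the interaction in medium. The interaction was positive for all 6 members, from 0.04 for HMGA2 (SE 0.98) and for ZFHX4 (SE 1.23) to 1.14 for CP (SE 0.89), and edgeR's adjusted p was 0.9999 for each. The shared sign depended on single libraries. Without replicate 2 of medium from normoxic cells without SPP1, all 6 interactions were negative, from -6.27 for ZFHX4 to -0.37 for CP. That fit left 1 library in the group, the one that stood apart. Without the first library of medium from hypoxic cells without SPP1, RPL26L1, ZFHX4, HMGA2 and LMNA turned negative (-0.04, -0.59, -0.59 and -0.31). CP and TBX15 stayed positive there, at 0.53 and 0.33. The 95% intervals were wide, reaching from -0.67 to 2.94 for CP and from -2.48 to 2.55 for ZFHX4, so differences of severalfold in either direction were not detectable for ZFHX4 at this size. Over all IDs, 0 of 5193 passed in edgeR (0%), 189 had an unadjusted p below 0.05, and DESeq2 called 0. The members' median log2 value was 0.43 and that of all IDs 0.04.

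Within hypoxic unwashed co-culture, SPP1 left the members without a common direction. Means with and without SPP1 were 27.2 and 26.6 CPM for HMGA2, 9.83 and 9.98 for TBX15, 19.6 and 14.8 for LMNA, 48.4 and 26.6 for ZFHX4, 16.0 and 26.1 for CP and 58.7 and 87.3 for RPL26L1. The log2 fold changes ran from -0.69 for CP (SE 0.67) to 0.85 for ZFHX4 (SE 0.88), with an edgeR adjusted p of 0.9997 for each member. RPL26L1, at -0.57 (SE 0.61), came to 0.02 when replicate 2 without SPP1 was left out. ZFHX4 values were 14.4, 36.4 and 94.3 CPM with SPP1 and 30.0, 9.37 and 40.4 without. These groups overlapped. No ID passed in edgeR, 0 of 5193 (0%), with 150 at an unadjusted p below 0.05 and 0 called by DESeq2. Members and all IDs both had a median log2 fold change near 0, at -0.01 and 0.01.

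**Figure D4:**
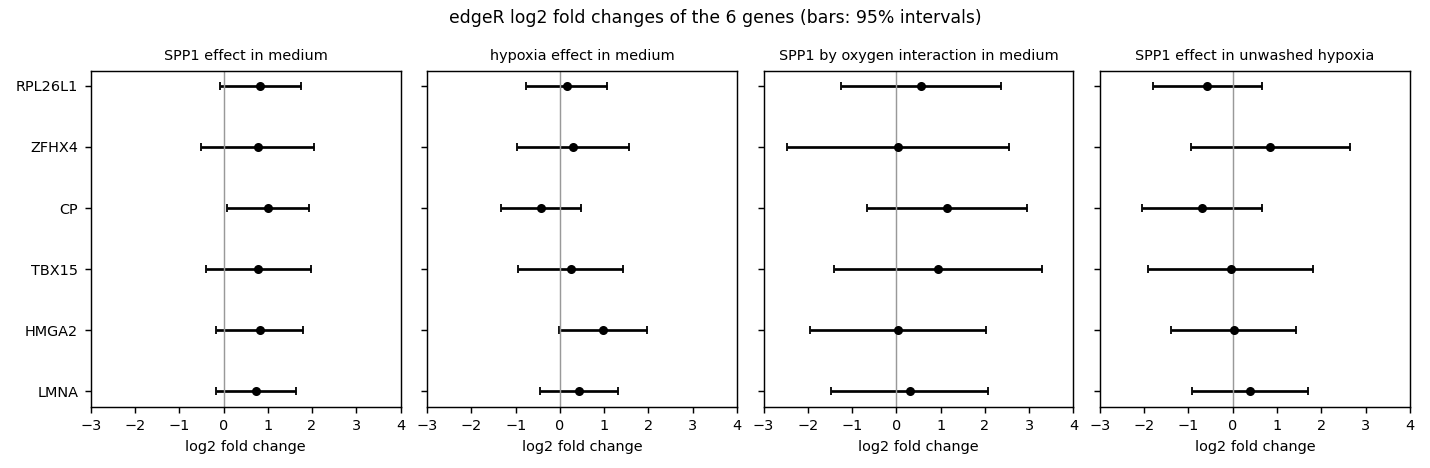
Points are edgeR log2 fold changes of the 6 genes and bars their 95% intervals, for SPP1 in medium, hypoxia in medium, the interaction of both in medium, and SPP1 in unwashed hypoxia; the vertical line marks 0. In the first panel all 6 points lie between 0.73 and 1.01, and only the interval of CP (0.08 to 1.93) leaves out 0, before adjustment over all IDs.

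Across all 37 libraries the 15 pairs of members correlated at 0.898 to 0.958 in log2 CPM (Pearson), a figure that mostly restates the selection, since libraries near 0 and libraries well above it form separate clusters. Over the 6 medium libraries with SPP1 the 15 correlations had a median of 0.66 and ran from -0.35 for ZFHX4 with CP to 0.95 for RPL26L1 with TBX15. Over the 6 unwashed hypoxia libraries the median was -0.07, and 8 of 15 were negative. These values rested on replicate 2 without SPP1, where RPL26L1 and CP were highest and the other 4 members lowest. Without it, a choice made after seeing the data, the median over 5 libraries was 0.61 and 1 of 15 was negative. CP with LMNA moved from -0.75 to -0.01, and CP with HMGA2 from -0.68 to 0.28. The points share library depth and composition, and the SPP1 and oxygen groups are pooled, so these values are a description over 5 or 6 points.

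An explicit count rule placed the members among the rest of the table. IDs with at most 3 counts in each of the 18 washed and unwashed normoxia libraries, and at least 10 counts in at least 6 of the 11 medium libraries or in at least 4 of the 6 unwashed hypoxia ones, numbered 20. These were 20 of 60708 IDs, and RPL26L1, ZFHX4, CP, TBX15 and HMGA2 were among them. The rule restates the pattern on which the members were selected, so nothing is read from how many met it. LMNA was just outside, with 4, 4 and 5 counts in 3 unwashed normoxia libraries against the limit of 3. All 20 met the medium criterion and 6 also the hypoxic one, among them RPL26L1, ZFHX4, CP and HMGA2. TBX15 missed the latter, with at least 10 counts in only 3 of 6 unwashed hypoxia libraries. The 15 other IDs summed to 250 to 486 counts in the 9 medium libraries and to 74 to 273 in unwashed hypoxia. In the 18 low libraries, where the rule itself caps the counts, they summed to 3 to 9. In the pair of medium libraries that stood apart they summed to 11 and 104, low as the members were. The number of such IDs depended on the limits, from 10 to 71.

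By profile over all 37 libraries, ENSG00000043355.12 was the ID most like RPL26L1 (Pearson r = 0.980) and CP (0.971), and ENSG00000197956.10 the one most like HMGA2 (0.978). Their symbols are not given here, and nothing is said of shared function. ENSG00000043355.12 had 31.6 ± 13.5 CPM in medium (SD, n = 11), 15.4 ± 2.69 in unwashed hypoxia (SD, n = 6), at most 1 count in any washed or unwashed normoxia library and 0 in both naive ones. ENSG00000197956.10 stood at 1011 ± 468 CPM in medium, 461 ± 123 in unwashed hypoxia, 24.8 ± 6.96 in unwashed normoxia and 29.6 ± 13.5 in washed co-culture. The 2 naive libraries had 26.35 and 126.3 CPM of it, so its baseline was not 1 level. In medium and co-culture its pattern followed HMGA2 on a raised baseline rather than from 0. The closest ID of each member reached an r of 0.951 to 0.980, and the same separate clusters underlie these values.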

How the data were processed

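Splenocyte RNA had been sequenced as QuantSeq 3′ libraries. According to the series text, the authors trimmed reads with bbduk, aligned them to GRCh38 with STAR 2.7.10b and counted genes with featureCounts of Rsubread 2.0.3. The deposited values are raw counts, whole numbers in 37 libraries. The annotation, strand setting, treatment of reads with several matches and any use of molecular identifiers are not given in the sources used here, and mouse reads that match the human genome poorly could have been lost.

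From the deposited counts, CPM were computed with TMM scaling. IDs passing filterByExpr (minimum count 10) were fitted with 13 group means in edgeR 4.0.16 (R 4.3.3, limma 3.58.1), by the quasi-likelihood test at an adjusted p of 0.05, and the procedure was tested on simulated data. The alternatives were RLE scaling, no filter, DESeq2 1.42.0, fits of 1 exposure, a replicate block, each library left out, and both medium libraries that stood apart left out. Log2 CPM used a prior count of 2. Named IDs were the 6 members and those with the most similar profile, at most 2. The members and all lists were chosen with earlier results of these data known. Lists of marker and pathway genes were not applied, because no table paired the IDs with symbols. The 35 pairs of replicates differed by more than sampling noise (chi-square per degree of freedom 2.86 to 44.2), so none was counted as 1 library deposited more than once.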

Additional observations from a re-analysis of the deposited data

Results flagged for a closer look

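Of 18 sets of 5 or 6 libraries (each gene in medium from hypoxic cells, medium from normoxic cells and unwashed hypoxia), 4 held a library far from the others. Chance flags about 1 in 20 independent sets, but these sets share libraries, so the 4 cannot be read against that rate. HMGA2 in medium from hypoxic cells was 0.771 CPM in replicate 1 without SPP1, and the nearest other library had 119.6 CPM. ZFHX4 in medium from normoxic cells was 0.698 CPM in replicate 3 without SPP1, with the nearest at 93.5 CPM. These are the libraries whose whole profile stood apart. ZFHX4 in unwashed hypoxia was 94.3 CPM in replicate 3 with SPP1, with the nearest at 40.4 CPM. CP in unwashed hypoxia was 39.8 CPM in replicate 2 without SPP1, with the nearest at 21.6 CPM. Their causes were not tested.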

How the results depend on the processing

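Over the alternatives, 0 members passed in any fit but 1. Leaving out single libraries gave 0 to 1 members called for SPP1 in medium, the 1 being ZFHX4, without replicate 2 of medium from normoxic cells without SPP1 (73 IDs called in all). In the other 3 comparisons no alternative called a member, and edgeR's and DESeq2's adjusted p were at least 0.0798, 0.342 and 0.798 for hypoxia in medium, the interaction and SPP1 in unwashed hypoxia. DESeq2 gave 2 values no adjusted p for hypoxia in medium. Over all IDs, the 13 calls for SPP1 in medium became 0 to 73 and the 4 for hypoxia in medium 0 to 35. SPP1 in medium had 0 calls without either library that stood apart, without replicate 3 of medium from normoxic cells with SPP1, or with medium libraries alone, and 31 in DESeq2. The interaction had up to 5 calls and SPP1 in unwashed hypoxia 15, both without a filter.

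Over all alternatives 1 of 102 log2 values reversed for SPP1 in medium, 8 of 102 for hypoxia in medium, 21 of 102 for the interaction and 13 of 66 for SPP1 in unwashed hypoxia. Without both libraries that stood apart, ZFHX4 for SPP1 in medium came to -0.0025, and the interaction of HMGA2 to -0.10. That fit left 1 library of medium from normoxic cells without SPP1. For SPP1 in unwashed hypoxia, HMGA2 turned from 0.03 to -0.0094 (RLE scaling), -0.0016 (only unwashed libraries), -0.0050 (DESeq2) and -0.032 (replicate block). The ZFHX4 interaction turned to -0.0095 without a filter and to -0.0012 in DESeq2, where that of HMGA2 was -0.00063.

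Leaving out single libraries moved log2 values across 0 in several cases. For hypoxia in medium, RPL26L1 ranged from -0.21 to 0.99, ZFHX4 from -0.18 to 3.45, CP from -0.78 to 0.32 and TBX15 from -0.18 to 1.54. The interaction ranged from -1.13 to 1.26 for RPL26L1, -6.27 to 0.98 for ZFHX4, -0.37 to 1.81 for CP, -1.65 to 1.77 for TBX15, -0.77 to 0.54 for HMGA2 and -1.14 to 0.98 for LMNA. Its lowest values, negative for all 6, came without replicate 2 of medium from normoxic cells without SPP1, a fit that left 1 library in that group. SPP1 in unwashed hypoxia ranged from -0.92 to 0.019 for RPL26L1, -0.081 to 1.29 for ZFHX4, -1.16 to 0.57 for TBX15 and -0.29 to 0.27 for HMGA2. ZFHX4 for SPP1 in medium ranged from 0.27 to 3.91. The causes were not tested.

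Same-numbered medium libraries deviated together at a mean correlation of -0.06 (15 pairs, -0.48 to 0.21), beside 0.03 for different numbers. Over all groups but the naive one the means were 0.008 (187 pairs, -0.48 to 0.53) and -0.004. The deviations were taken from means of 2 or 3 libraries and cancel within a group, so this check cannot exclude pairing. With a replicate block, SPP1 in medium called 12 IDs in place of 13 and hypoxia in medium 4 in place of 4, with 0 members.

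The 20 IDs with the count pattern became 10 with at most 1 count in the low libraries, 46 with at most 5, 71 with at least 5 counts in the high libraries and 11 with at least 20. Members' mean levels in medium and unwashed hypoxia moved by less than 1 SD under plain or RLE scaling, without the libraries that stood apart, and without replicate 2 of unwashed hypoxia without SPP1, the last chosen after seeing the data. At these depths a member at 3 counts or fewer cannot be told from 0.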

Other observations

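The ratio of HMGA2 to CP counts within a library, chosen after its values were seen and not tested, was 1.21 to 2.70 (median 1.55) in the 5 libraries of medium from hypoxic cells with at least 100 member counts. It was 0.491 to 1.40 (median 0.55) in the 5 of medium from normoxic cells. Replicate 3 of medium from normoxic cells with SPP1, at 1.40, lay inside the hypoxic range, and the other 4 normoxic libraries lay below it.

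By symbol, 4 of the 5 members with a mouse gene (Zfhx4, Cp, Tbx15 and Lmna) are on mouse chromosome 3, which holds 983 of 21900 coding genes (4.49%) in the RefSeq table of GRCm38. Hmga2 is on chromosome 10. Chromosome 3 was picked after the positions of the members were seen, so the 4.49% is not a test. The printed windows of Cp and Lmna start at its bases 19956999 and 88503303. These positions describe 5 genes whose link to the measured IDs is by symbol only.

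The naive splenocytes had 2 and 4 TBX15 counts and 1 and 6 HMGA2 counts. With 2 libraries and so few counts, no difference from the other groups was tested.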
